A study of Rattus norvegicus with 6 samples.

Results

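Transcripts of 6 genes that let an islet cell read glucose and load its granules were followed through the cells of the rat pancreas. The genes were Slc2a2, G6pc2, Abcc8, Kcnj11, Slc30a8 and Ucn3, chosen by function and not by a threshold on their values. 5 of the 6 had a row among the 32883 genes of the matrices, and G6pc2, a glucose-6-phosphatase subunit of islets, was not analysed here. Single cells came from islet preparations of 6 male Wistar rats in 3 groups of 2. Young rats were 2 months old on a normal diet, old rats were 20 months old after 18 months of a normal diet, and HFHF-old rats were 20 months old after 18 months of a high-fat high-fructose (HFHF) diet. Every rat gave 1 droplet library, so the rat was the replicate and the cells of a rat were not.

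In a beta cell, glucose enters through the transporter GLUT2, is phosphorylated and burned, and the ATP made closes the KATP channel, which is built of pore and regulatory subunits. The membrane then depolarises, calcium enters and insulin granules are released. Slc2a2 encodes GLUT2, Kcnj11 the pore Kir6.2, Abcc8 the regulatory subunit SUR1, the target of sulfonylurea drugs, Slc30a8 the granule zinc transporter ZnT8, and Ucn3 the peptide urocortin 3, which is released with insulin and acts on delta cells. Alpha cells and pancreatic polypeptide (PP) cells carry the same channel, and in mice urocortin 3 is known as a marker of mature beta cells.

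Of 78024 barcodes, 75201 passed the cell filters. A cell was placed in the class of its most abundant hormone where that hormone made up 5% or more of its unique molecular identifiers (UMIs, each standing for 1 captured transcript). This rule gave 6155 beta, 2125 alpha, 1404 PP and 53 delta cells in all. Beta cells numbered 178 and 3329 in the young rats, 536 and 1322 in the old rats and 785 and 5 in the HFHF-old rats, by replicate number. Alpha cells numbered 550 and 597, 129 and 816, and 30 and 3 in the same sequence, which is kept throughout, and PP cells 134 and 457, 82 and 668, and 63 and 0. HFHF-old replicate 2 therefore entered no test, and the HFHF-old group of every comparison was 1 rat. Libraries held 77387928 to 166875258 UMIs, and pairs of libraries shared 20 to 69 cell barcodes. Other cells were clustered and named from fixed marker genes, such as ductal-like cells. Clusters that did not meet the naming rule stayed unnamed, with 4981 and 3293, 2848 and 6201, and 7277 and 7882 cells.

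Levels are counts per 1000000 UMIs of the class in 1 rat (CPM). The classes were checked against markers that did not define them. Pdx1 and Nkx6-1, beta cell transcription factors, had median levels of 86.3 and 54.4 CPM in beta cells against 2.41 and 0.350 in alpha cells. Young replicate 2, with 3329 beta cells, was lowest at 20.6 and 7.76 CPM, and its 2367 cells with insulin at 10 to 30% held 7.74 and 2.83 CPM, against 72.2 and 27.8 in its 207 cells at 50% or more. Irx2, a transcription factor of alpha cells, had a median of 49.5 CPM in alpha, 5.16 in PP and 0.166 in beta cells. Aqp4, a marker of rodent PP cells, reached no more than 2.69 CPM in PP cells, and PP cells were separated by Ppy and Pyy alone.

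The beta class was not equally pure in all rats, and this touches each beta result below. In young replicate 2, 2692 of 3329 beta cells held a second hormone at 20% or more of the first, and only 207 had insulin at 50% or more of their UMIs. In HFHF-old replicate 1, 582 of 785 beta cells had under 2000 UMIs. Values are therefore given also for the 90, 207, 157, 620 and 150 beta cells of the 5 rats with insulin at 50% or more, called insulin-rich here, a limit chosen after the data had been seen. No doublet caller was run.

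Among the members, Slc2a2 had the largest fitted differences of beta cells from alpha cells and from PP cells. Its level in beta cells was 382 and 59.8 CPM in the young rats, 324 and 225 in the old rats and 393 in HFHF-old replicate 1. In the insulin-rich beta cells it was 398 and 230.5, 423 and 234, and 402 CPM. Only young replicate 2 fell far from the rest in the wide class, and it no longer stood apart in the insulin-rich cells. Alpha cells held 2.09, 1.89, 1.40, 2.97 and 0 CPM in the same order, so the levels of beta and alpha cells did not overlap. PP cells held 0, 3.13, 3.10, 2.17 and 0 CPM. The 0 in the 30 alpha cells of HFHF-old replicate 1 allows up to 5.14 CPM (3 counts). The 250 bases before the annotated start of Slc2a2 (RefSeq, build GRCr8, plus strand, chr2:113540120-113540369) are shown beside those of Ucn3 below. Of the analysed members, only Slc2a2 and Ucn3 had such a stretch at hand. The submitters' processing notes name another build, Rnor_6.0, for the counts.

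Slc2a2: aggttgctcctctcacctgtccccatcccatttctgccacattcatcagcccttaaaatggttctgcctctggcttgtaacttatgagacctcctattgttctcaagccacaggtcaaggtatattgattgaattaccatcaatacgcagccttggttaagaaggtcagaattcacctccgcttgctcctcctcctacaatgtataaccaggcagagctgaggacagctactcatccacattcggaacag

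Free RNA from broken cells can put a beta cell transcript into any droplet, and RNA of 1 source keeps its genes in 1 ratio. Slc2a2 in alpha cells was therefore set against the level it would have if it had come along with insulin transcripts in the ratio of the insulin-rich beta cells of the same rat. The measured UMIs were 2.57, 0.786, 1.44, 1.24 and 0 times that level, or 49 UMIs in all against 39.9. Among alpha cells with no second hormone at 20% or more of the first there were 34 UMIs against 15.2. This filter takes out cells rich in insulin, which can itself lower the level at the insulin ratio. In PP cells there were 27 UMIs against 31.1. T-like lymphocytes, which should lack the gene, held 0 to 2.49 CPM, NK-like cells 0 to 3.03 and acinar-like cells 0 to 5.82. The levels of Slc2a2 in alpha and PP cells lay within the range of these cells. With no limit on the top 1% of gene number, the 87 PP cells of HFHF-old replicate 1 held 39 UMIs, 16.0 CPM, which is outside that range. The part of free RNA in these counts was not tested.

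Outside the islet, Slc2a2 was found in ductal-like cells, the lining of the pancreatic ducts, at 167, 115, 136, 104 and 87.0 CPM in the 5 rats. At the insulin ratio these cells would hold 0.383 to 2.66 CPM. The 132 UMIs of old replicate 2 lay in 77 of its 242 ductal-like cells. The ductal marker Sox9 was at 466 to 745 CPM there. In young replicate 1 the ductal-like cells also held Pcsk2, an endocrine protease, at 511 CPM, against 8.70 to 43.2 in the other rats. In delta cells, the 2 young rats had 53.3 and 33.0 CPM, but the 5 UMIs of young replicate 2 came from 1 cell. Mesothelial-like cells had a median of 13.1 CPM, and 35 of the 42 UMIs in young replicate 1 came from 1 cell.

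Ucn3 had a 3-step order, with beta cells above alpha cells and alpha cells above PP cells. Its level was 54.4, 8.53, 43.1, 60.1 and 84.3 CPM in beta cells and 54.96, 38.3, 56.8, 62.5 and 89.9 in insulin-rich beta cells. Alpha cells held 18.6, 11.3, 14.3, 15.9 and 24.0 CPM. PP cells held 0.570, 0.962, 0, 1.77 and 0.898, which is 15 UMIs in all. Every rat's insulin-rich beta cells were above every rat's alpha cells, and every rat's alpha cells were above every rat's PP cells. In the wide beta class, young replicate 2 lay below the alpha cells of all 5 rats.

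The Ucn3 UMIs of alpha cells were set against the same insulin ratio. At the ratio of insulin-rich beta cells, alpha cells would hold 0.112 to 0.639 CPM. The measured levels were 166, 28.4, 110, 24.9 and 92.1 times as high, 350 UMIs in all against 8.06. Among alpha cells with no second hormone at 20% or more of the first, the ratio was 68.4 to 277. This filter takes out cells rich in insulin, which can itself lower the level at the insulin ratio, so the rise was not read further. The UMIs were spread over 81 of 550, 52 of 597, 25 of 129, 88 of 816 and 11 of 30 alpha cells, and no cell held more than 4. When the alpha cells of each rat were divided at their median insulin share, the part with less insulin had Ucn3 at 17.7, 11.6, 15.6, 16.5 and 19.3 CPM and the part with more insulin at 20.8, 9.92, 11.96, 12.7 and 31.7. The level was higher in the part with less insulin in 3 of 5 rats. The part of free RNA and of doublets in these counts was not tested. Thinned to 3000 UMIs a cell, 2.79% to 10.7% of alpha cells had a Ucn3 UMI, against 0% to 0.806% of PP cells and 0% to 0.0689% of T-like cells. Unthinned, the shares were 8.71% to 36.7%, 0% to 1.59% and 0% to 0.307%. Thinning left out 807 alpha, 656 PP and 1231 T-like cells and kept 1315, 748 and 3347. Median depths before thinning were 2561 to 23174 UMIs in alpha and 2905 to 8405 in T-like cells.

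**Figure D1:**
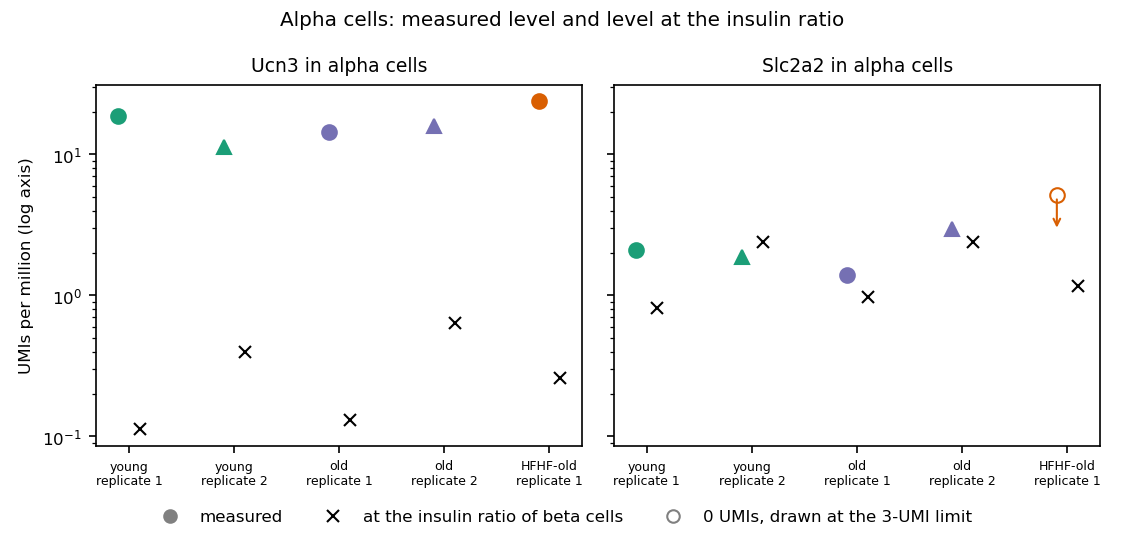
Level of Ucn3 (left) and Slc2a2 (right) in the alpha cells of 5 rats, in CPM on a log axis, with filled marks for the measured level and crosses for the level at the insulin ratio of insulin-rich beta cells. Ucn3 lay 24.9 to 166 times above the crosses and Slc2a2 lay near them, and the open mark with an arrow is the rat with 0 Slc2a2 UMIs, drawn at its limit of 5.14 CPM.

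The 250 bases before the start of Ucn3 (RefSeq, build GRCr8, plus strand, chr17:71219406-71219655) hold TAATTA, the core that homeodomain factors such as Pdx1 bind, 171 bases before the start, and CAGCTG, an E-box that Neurod1-type factors can bind, 62 bases before it. Capitals mark both. These motifs and TGCTGA, the core of the Mafa element, were searched on both strands, and none was found in the Slc2a2 stretch. Of 33469 such stretches in the rat table, 4.86% hold TAATTA, 12% CAGCTG and 15.1% TGCTGA. A match describes the letters only.

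Ucn3: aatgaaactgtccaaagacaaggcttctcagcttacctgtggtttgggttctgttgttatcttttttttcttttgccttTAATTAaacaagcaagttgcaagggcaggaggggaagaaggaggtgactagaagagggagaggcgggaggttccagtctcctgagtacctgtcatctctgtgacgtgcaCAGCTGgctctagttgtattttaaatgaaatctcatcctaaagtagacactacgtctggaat

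Slc30a8, which fills granules with zinc for the packing of insulin crystals, was found in alpha, beta and PP cells at levels that overlapped. Its level was 136, 28.3, 81.7, 127 and 266 CPM in beta cells. In alpha cells it was 414, 237, 195, 133 and 274 CPM, and in PP cells 353, 150.3, 191, 146 and 245. Delta cells of the young rats held 40.8 and 79.2 CPM, below the alpha and PP cells of the same rats. Insulin and the other hormones fill much of a beta cell's UMIs, and with hormone and digestive enzyme transcripts left out of the total the medians were 436 CPM in beta, 379 in alpha and 286 in PP cells. The order of the 3 medians thus turned with the denominator.

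The KATP channel transcripts ran the other way from Slc2a2. Abcc8 was at 28.6, 22.7, 30.5, 37.8 and 67.1 CPM in beta cells, 209.6, 115, 178, 125.5 and 289.5 in alpha cells and 221, 135, 266, 138 and 280.1 in PP cells. The lowest alpha value was above the highest beta value. Kcnj11 was at 24.0, 15.2, 25.6, 22.3 and 54.4 CPM in beta cells, 116, 87.1, 100.1, 65.6 and 113 in alpha cells and 151, 98.3, 122, 86.2 and 122 in PP cells. Its alpha and beta levels did not overlap either on this scale. In insulin-rich beta cells Abcc8 was at 22.1 to 63.5 and Kcnj11 at 20.5 to 54.3 CPM. With hormone and digestive enzyme transcripts left out of the total, the medians of Abcc8 were 100.1 in beta, 274 in alpha and 317 in PP cells, and those of Kcnj11 were 83.0, 152 and 176. On that scale Kcnj11 overlapped, with the beta cells of HFHF-old replicate 1 at 122.5 and the alpha cells of old replicate 2 at 119.7, and Abcc8 did not. Delta cells of the young rats held Abcc8 at 333 and 284 and Kcnj11 at 109.8 and 165 CPM, from 106, 43, 35 and 25 UMIs.

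**Figure D2:**
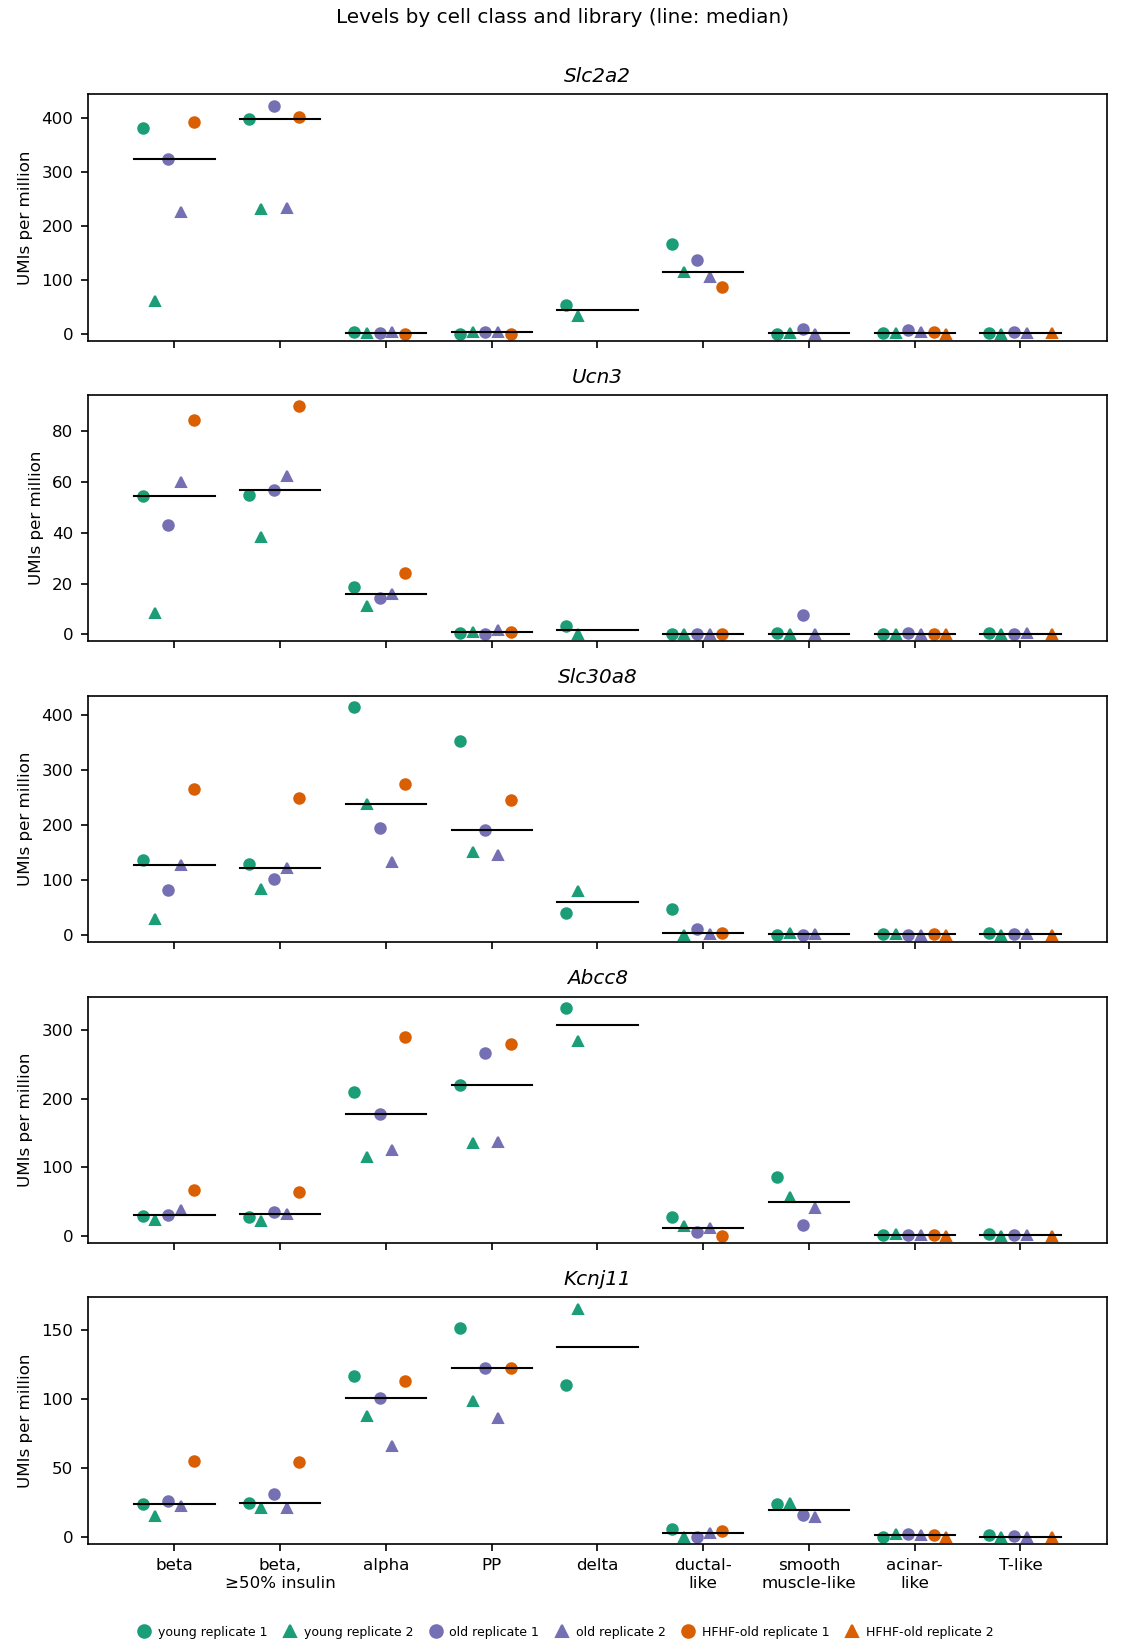
Level of each of the 5 genes in CPM (linear axes that differ between panels) by cell class, 1 mark per rat with at least 10 cells of the class and a line at the median. Slc2a2 is high in beta and ductal-like cells, Ucn3 falls from beta to alpha to PP cells, and Abcc8 and Kcnj11 are lower in beta than in alpha and PP cells.

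Both subunits were also found in smooth muscle-like cells, Abcc8 at 85.9, 56.3, 15.3 and 41.1 CPM and Kcnj11 at 23.9, 24.0, 15.3 and 14.4 in the young and old rats. These values rest on 263 and 85 UMIs, of which old replicate 1 gave 2 of each. Slc30a8, which exceeded Abcc8 in the alpha cells of both young rats (2576 against 1305 and 1510 against 729 UMIs), had 1 and 5 UMIs in their smooth muscle-like cells beside 180 and 61 of Abcc8. In their delta cells, where Slc30a8 was the lower, it had 13 and 12 UMIs beside 106 and 43. The smooth muscle-like cells of the young rats also held 2 other endocrine genes, Pcsk2 with 28 and 46 UMIs and Chga with 7 and 26. The part of free RNA in the counts of smooth muscle-like cells was not tested. Abcc9 and Kcnj8 are the paralogues of Abcc8 and Kcnj11 that build the vascular KATP channel. In the smooth muscle-like cells of the young and old rats, Abcc9 was at 88.7, 87.7, 1041 and 132 CPM. Kcnj8 was at 10.0, 15.7, 375 and 12.3 CPM there. Old replicate 1, highest for both, had 18 of these cells. Ductal-like cells held Abcc8 at 0 to 27.8 and Kcnj11 at 0 to 5.56 CPM. T-like cells held no more than 2.79 and 0.930 CPM.

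The ratio of Abcc8 to Kcnj11 UMIs, which compares classes and not the amounts of the 2 transcripts, had a median of 1.80 in alpha (1.32 to 2.56), 1.23 in beta (1.19 to 1.69) and 1.60 in PP cells (1.37 to 2.29). The ranges overlapped.

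The differences between classes were tested on UMIs summed per rat and class, with the rat as a block, in 15 sums of 5 rats. A call needed a fold change over 1.5 and, among the 12710 genes tested, an adjusted p below 0.05 (edgeR's quasi-likelihood test, Benjamini-Hochberg adjustment). Beta cells differ from alpha cells in many genes, and 29% of all genes were called, 15.6% higher and 13.3% lower. Of the 5 members 4 were called, 2 higher and 2 lower in beta cells. Slc2a2 was higher by a log2 fold change of 7.89 ± 0.70 (SE, adjusted p = 8.00e-06) and Ucn3 by 2.27 ± 0.39 (adjusted p = 0.000659). Each SE of a fold change in this text is its size divided by the square root of the test's F statistic. The fold of Slc2a2 rests on 49 UMIs in alpha cells, with 0 in 1 rat. Abcc8 was lower, at -1.40 ± 0.14 (adjusted p = 1.75e-05), and so was Kcnj11, at -0.95 ± 0.20 (adjusted p = 0.00306). Slc30a8 differed by -0.19 ± 0.35 (adjusted p = 0.698).

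Against PP cells, 24.5% of genes were called in beta cells, 13.3% higher and 11.2% lower, and of the members again Slc2a2, Ucn3, Abcc8 and Kcnj11. The log2 fold changes were 7.90 ± 0.72 for Slc2a2, over 27 UMIs in PP cells with 0 in 2 rats, 6.19 ± 0.52 for Ucn3, -1.55 ± 0.14 for Abcc8 and -1.17 ± 0.20 for Kcnj11, with adjusted p-values of 4.46e-06 to 0.000928. Slc30a8 differed by 0.10 ± 0.35 (adjusted p = 0.854). Between alpha and PP cells 7.58% of genes were called, 3.95% higher and 3.63% lower in alpha cells, and of the members only Ucn3, which was higher in alpha cells by 3.92 ± 0.52 (adjusted p = 0.000341). Abcc8, Kcnj11, Slc30a8 and Slc2a2 differed by -0.15 ± 0.13, -0.22 ± 0.19, 0.29 ± 0.34 and 0.01 ± 0.73 there. The fits scale the sums so that the bulk of genes is level, so these differences are not the ratios of the levels in CPM.

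The results of Kcnj11 and Slc30a8 depended on which cells counted as beta cells. With insulin-rich beta cells alone, 27.5% of 12313 genes were called against alpha cells, 14.5% higher and 13% lower. Kcnj11 then differed from alpha cells by -0.35 (adjusted p = 0.0258) and from PP cells by -0.58 (adjusted p = 0.000842), both under the fold limit of 1.5. Slc30a8 turned to 0.51 above alpha cells (adjusted p = 0.00511, under the fold limit) and was called 0.76 above PP cells (adjusted p = 0.000248), where 27% of genes were called, 14.1% higher and 13% lower. Slc2a2, Ucn3 and Abcc8 stayed called, at 8.72, 3.25 and -0.96 against alpha cells and 8.76, 7.03 and -1.11 against PP cells.

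**Figure D3:**
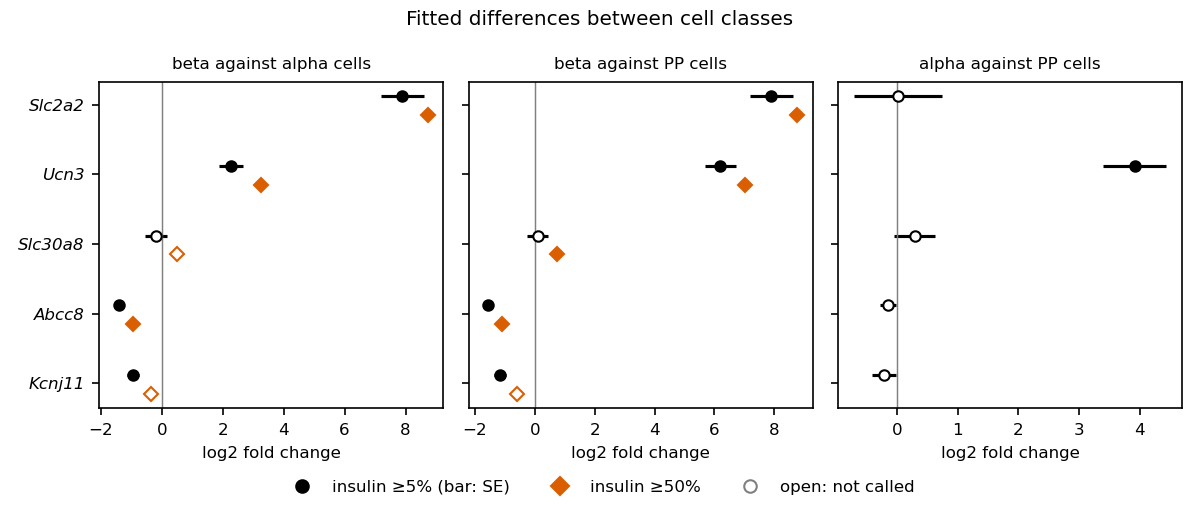
Fitted log2 fold change of the 5 genes between classes, with circles and bars (SE) for beta cells at 5% insulin or more and diamonds for insulin-rich beta cells. Filled marks were called, and Kcnj11 and Slc30a8 are the genes whose marks change between the 2 definitions.

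Within the beta class, Slc2a2 and Kcnj11 were at higher levels in the cells with the most insulin than in those with the least in each of 5 rats. This is a description, since cells of 1 rat are not replicates. For the other members the direction turned with the denominator. With hormone and digestive enzyme transcripts left out of the total, all 5 members were higher in the highest step in each rat. Insulin sets the steps and is left out of this total, so a gene at a fixed level in CPM of all UMIs can rise here too. The share of all genes that rise on this scale was not counted. In CPM of all UMIs, young replicate 1 went from 33.6 to 27.5 for Abcc8, from 207 to 129.6 for Slc30a8 and from 55.9 to 54.96 for Ucn3, and old replicate 2 from 37.3 to 32.4 for Abcc8. The levels that follow leave these transcripts out. In young replicate 2, Slc2a2 was at 14.99, 28.8, 111 and 1142 CPM in cells with insulin at 5 to 10%, 10 to 30%, 30 to 50% and 50 to 100%. In old replicate 1 the same steps gave 54.5, 194, 380.1 and 1737, and in old replicate 2 196, 213, 355 and 911. Young replicate 1 gave 152, 270, 664 and 1668, with 20 to 90 cells a step. HFHF-old replicate 1 did not follow the order, with 86.6, 1118, 734 and 1059, where the second step held 55 cells.

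On this scale the other members were also higher in the highest than in the lowest step, though not always in a steady order between them. Ucn3 went from 2.00 to 190 CPM in young replicate 2 and from 7.64 to 237 in HFHF-old replicate 1, and from 60.8 to 230 in young replicate 1. Slc30a8 went from 18.0 to 414, from 71.3 to 656 and from 225 to 543 in these 3 rats. For Abcc8 the lowest step was at 20.4 to 46.1 and the highest at 109.7 to 167 over the 5 rats. Kcnj11 was at 10.99 to 24.3 in the lowest and at 79.7 to 143 in the highest step. Digestive enzymes made up 1.38% to 24.5% of the UMIs in the lowest step and 0.0447% to 0.871% in the highest, and the median UMIs per cell also differed between steps. The part of enzyme transcripts, second hormones and depth in these differences was not tested.

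**Figure D4:**
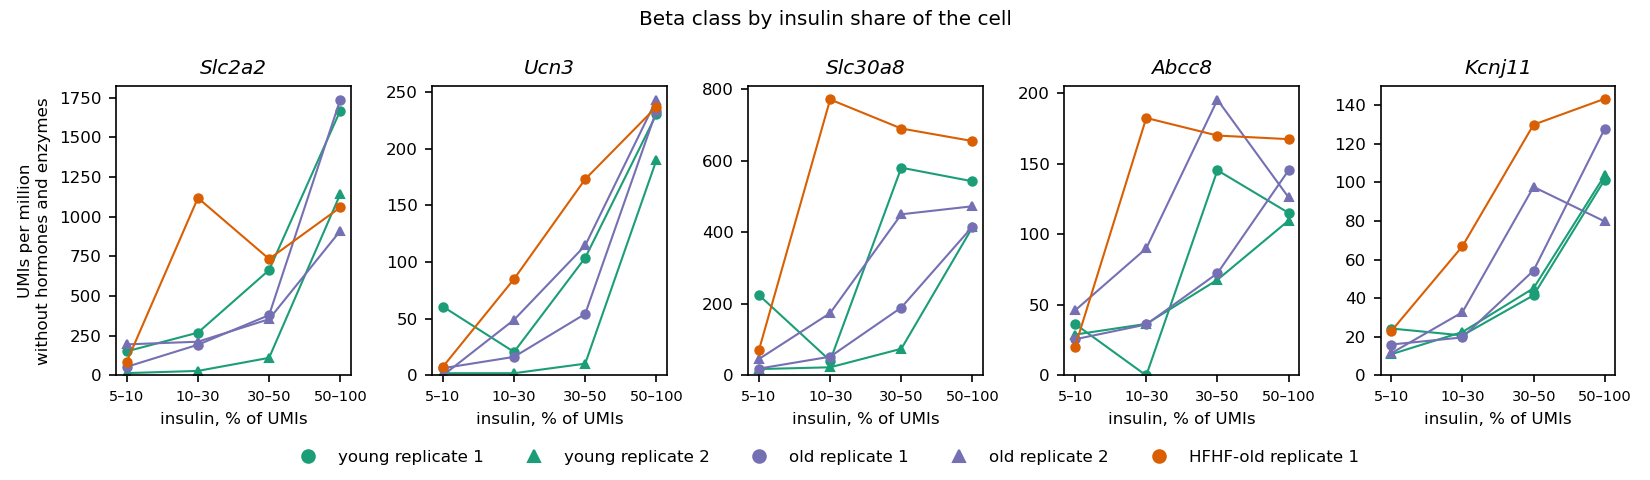
Level of each gene in beta cells by the insulin share of the cell (4 steps), in CPM without hormone and digestive enzyme transcripts, 1 line per rat. On this scale all 5 genes are higher in the highest than in the lowest step in every rat, which in CPM of all UMIs holds for Slc2a2 and Kcnj11 only.

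The study then asks what age and the HFHF diet change. In none of 6 comparisons, old against young and HFHF-old against old in beta, alpha and PP cells, was a member called. The tests used 5 sums with 2 residual degrees of freedom, and HFHF-old, as 1 rat, was taken to vary like the other groups. In beta cells 0 members were called, and 0% of 13058 genes in either comparison. No member had an unadjusted p under 0.05, and 382 genes did in the comparison of old with young and 174 in that of HFHF-old with old. DESeq2 called 0 members too, with 16 and 4 genes called in all.

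In beta cells the members' log2 fold changes from young to old were 0.47 ± 0.96 for Slc2a2, 0.88 ± 0.89 for Ucn3, 0.52 ± 0.84 for Slc30a8, 0.66 ± 0.44 for Abcc8 and 0.52 ± 0.47 for Kcnj11 (adjusted p = 1.00 each). With insulin-rich cells they were -0.04, 0.23, -0.05, 0.31 and 0.04, where 0.0267% of 11245 genes were called (0.0178% higher, 0.00889% lower). In the wide class, without young replicate 2, Slc2a2 stood at -0.36 and Slc30a8 at -0.25. These were the lowest values over the rats left out in turn. The highest, given at the end, lay above the main values.

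Abcc8 and Ucn3 were the 2 of 5 members whose insulin-rich beta cells did not overlap between young and old rats, and 32.7% of the 12759 genes with 10 UMIs or more in these rats did not overlap. Abcc8 was at 27.5 and 22.1 CPM in the young and 35.4 and 32.4 in the old rats (24.8 ± 3.78 and 33.9 ± 2.13, SD, n = 2 each). Ucn3 was at 46.6 ± 11.8 in the young and 59.7 ± 3.99 in the old rats (SD, n = 2 each). With no limit on the top 1% of gene number, Ucn3 overlapped, at 61.3 and 43.7 in the young and 55.9 and 63.3 in the old rats. Abcc8 did not overlap there, at 30.5 and 22.9 in the young and 42.8 and 32.5 in the old rats. Neither gene passed the test. In the wide class Abcc8 was the 1 member that did not overlap, against 27.9% of 15053 genes.

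HFHF-old replicate 1 had the highest level of 4 of 5 members in insulin-rich beta cells, Abcc8, Kcnj11, Slc30a8 and Ucn3, in CPM, and of 70.3% of the 13267 genes with 10 UMIs or more in the 5 rats. In these cells Abcc8 was at 63.5, Kcnj11 at 54.3 and Slc30a8 at 248.8 CPM. The highest values of the other 4 rats were 35.4, 31.1 and 129.6. Hormones and enzymes took 62.1% of the UMIs of these cells in HFHF-old replicate 1 against 74.3% to 79.8% in the other rats. With these transcripts left out, Abcc8 was at 167 against 145 in the next rat, Kcnj11 at 143 against 128, Slc30a8 at 656 against 543, and Ucn3 at 237 against 243. The fitted log2 fold changes from old to HFHF-old were 0.20 ± 0.53 for Abcc8, 0.42 ± 0.56 for Kcnj11, 0.57 ± 1.01 for Slc30a8, -0.06 ± 1.08 for Ucn3 and -0.25 ± 1.18 for Slc2a2. For insulin-rich cells they were 0.04, 0.22, 0.29, -0.27 and -0.57, and 0 members were called, against 0.0356% of genes (0.0267% higher, 0.00889% lower).

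In alpha cells Slc30a8 was at 414 and 237 CPM in the young and 195 and 133 in the old rats. It was the 1 of 5 members whose alpha cells did not overlap between these groups, against 40.2% of 14318 genes, and HFHF-old replicate 1, at 274, lay between the 2 young rats. With hormones and enzymes left out of the total, it lay at 379, below both young rats (541 and 393) and above both old rats (346 and 243). The log2 fold change from young to old was -0.57 ± 0.35 (adjusted p = 0.999), in a comparison where 0.015% of 13311 genes were called. Ucn3, Abcc8 and Kcnj11 stood at 0.45 ± 0.32, 0.33 ± 0.34 and 0.09 ± 0.31 there, and Slc2a2 at 0.62 ± 0.63, with all adjusted p-values at 0.999. From old to HFHF-old, where 0.0225% of genes were called, Slc30a8 stood at 0.08 ± 0.44, Ucn3 at -0.02 ± 0.43, Abcc8 at 0.27 ± 0.41 and Kcnj11 at -0.21 ± 0.40. No fold is given there for Slc2a2, since HFHF-old replicate 1 held 0 UMIs and its limit of 5.14 CPM is above both old rats.

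In PP cells only Abcc8, Kcnj11 and Slc30a8 had enough counts to be tested. From young to old they stood at 0.31 ± 0.40, -0.10 ± 0.37 and -0.37 ± 0.43, where 0.0182% of 10968 genes were called. From old to HFHF-old they stood at 0.10 ± 0.49, -0.18 ± 0.45 and 0.12 ± 0.53, where 0.0274% were called (0.0182% higher, 0.00912% lower). Whether age acted differently on beta and alpha cells was tested with the difference of the 2 changes, a test chosen after the values were seen. It was 1.54 ± 0.86 for Slc30a8 (adjusted p = 1), and 0.55 ± 0.24 with insulin-rich beta cells (adjusted p = 0.752, edgeR).

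**Figure D5:**
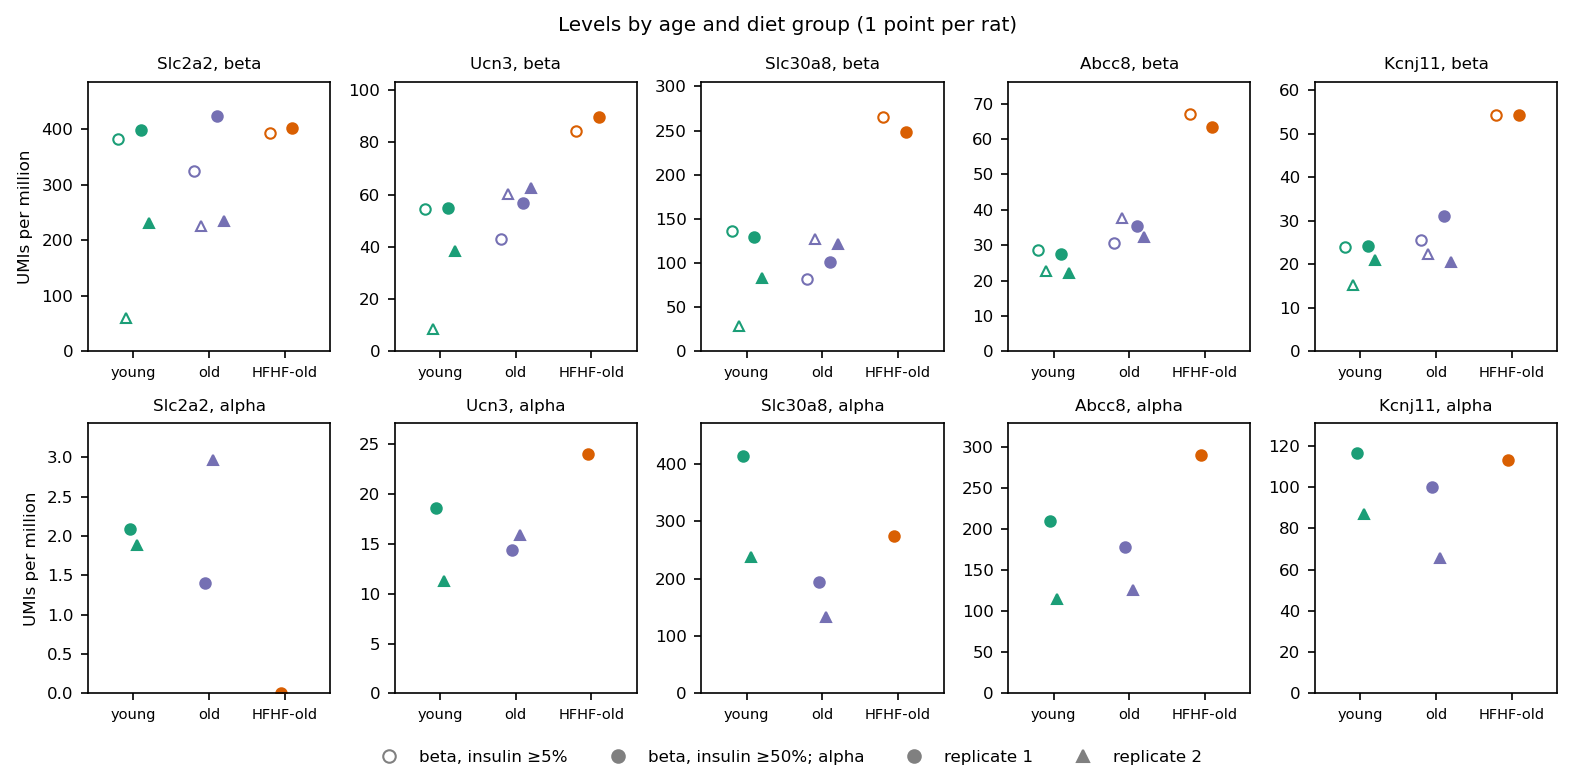
Level of each gene by group in beta cells (upper row, open marks for the wide class and filled marks for insulin-rich cells) and alpha cells (lower row), in CPM, 1 mark per rat. Young and old rats overlap for most genes, and HFHF-old is a single rat.

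Around these genes, the steps of the glucose response were read from fixed lists. For glucose entry and phosphorylation 7 of 15 tested genes were higher and 2 lower in beta than in alpha cells (median log2 fold change 0.85 against 0.01 over all genes), where 15.6% of all genes were higher and 13.3% lower. For membrane excitability and calcium 4 of 23 were higher and 11 lower in beta cells (median -0.54). Trpm5, a calcium-activated cation channel of beta cells, was higher by 8.26 ± 0.75 (adjusted p = 0.00166), and Scn9a, a sodium channel, was lower by a log2 fold change of -4.62 ± 0.53 (adjusted p = 5.20e-05).

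Against the same shares, for zinc transport 3 of 12 genes were higher and 0 lower in beta than in alpha cells, and for mitochondrial coupling 2 of 13 were higher and 6 lower. Of 3 tested genes for urocortin signalling 1 was lower. Among 14 beta cell regulators 6 were higher and 2 lower. Nkx6-1, Glp1r, the receptor of the incretin GLP-1, Pdx1 and Mafa were higher by 7.35 ± 0.63, 6.50 ± 0.55, 5.94 ± 0.54 and 5.73 ± 0.95, with adjusted p-values of 7.75e-07 to 0.00143. Of 4 tested genes that are usually kept low in beta cells, 3 were higher and 1 lower in beta than in alpha cells.

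Against PP cells, where 13.3% of all genes were higher and 11.2% lower in beta cells, the lists gave 4 higher and 2 lower of 15 for glucose entry, 3 and 7 of 23 for excitability, 2 and 0 of 12 for zinc transport, 2 and 4 of 13 for mitochondrial coupling and 6 and 2 of 14 for regulators. Urocortin signalling gave 0 higher and 2 lower of 3, and genes low in beta cells 2 and 1 of 4. Trpm5 was at 8.25 ± 0.85, Mafa at 7.75 ± 1.36, Glp1r at 6.60 ± 0.58, Nkx6-1 at 5.65 ± 0.56 and Ero1b, an oxidase for proinsulin folding, at 3.74 ± 0.38, and Scn9a at -4.52 ± 0.53 (adjusted p at most 0.00276, edgeR).

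Between alpha and PP cells 3.95% of all genes were higher and 3.63% lower in alpha cells. Higher in alpha cells were 1 of 15 for glucose entry, 3 of 13 for mitochondrial coupling, 4 of 23 for excitability, 1 of 12 for zinc, 1 of 3 for urocortin signalling and 1 of 14 regulators, and 2, 3 and 1 were lower for excitability, regulators and genes low in beta cells. The calcium release channel Ryr2 was higher in alpha cells by 3.18 ± 0.41 (adjusted p = 0.000396), as were the glycerol phosphate shuttle enzyme Gpd1 at 2.44 ± 0.54 and the potassium channel Kcnma1 at 1.92 ± 0.34. The calcium channel Cacna1h, at -2.54 ± 0.47, and Pdx1, at -2.28 ± 0.52, were lower (adjusted p at most 0.0142). In the 6 comparisons between groups 0 genes of any list were called.

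The genes most like each member were sought over 17 sums of alpha, beta, PP and delta cells, by Pearson's r of log2(CPM + 1) among 10923 genes. Slc2a2 was nearest to Mdh1 (r = 0.94), a malate dehydrogenase, and to Anxa10 and Crispld1 (r = 0.93 each). Ucn3 was nearest to Frrs1l and Cnnm1 (r = 0.89 each), and Slc30a8 to Gabbr2, Slc7a2 and Adcy1 (r = 0.94, 0.92 and 0.90). Abcc8 was nearest to Matr3, Schip1 and Ptprt (r = 0.98 each) and Kcnj11 to Copb1, AC134224.3 and Rab2a (r = 0.99, 0.99 and 0.98). Sums of 1 rat share a library, and a large hormone share lowers all other genes of a sum together, so these values describe the sums only.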

How the data were processed

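Per the labels and the methods of the study, islets were isolated with collagenase P and a density gradient, 10x Genomics 3' v3.1 libraries were made, and the authors ran Cell Ranger. The submitters' processing notes name Rnor_6.0. The deposited values are UMI counts per gene and barcode in filtered matrices, not normalized. The matrix headers give Cell Ranger 5.0.0. Barcodes under 200 genes, over 25% mitochondrial UMIs or in the top 1% of gene number were left out, limits that the study gives, applied here to all barcodes pooled, so the cells kept need not be those of the study. The limit on gene number alone left out 521 barcodes of HFHF-old replicate 1 and 22 to 98 in each other library. Without this limit, the insulin-rich beta cells of HFHF-old replicate 1 numbered 221 with 13544452 UMIs, in place of 150 with 5575288. Cells without 5% of a hormone were clustered (scanpy 1.11.5, leidenalg 0.10.2, resolution 1) and named from marker genes. UMIs were summed per rat and class with at least 10 cells. Tests used the quasi-likelihood functions of edgeR 4.0.16 in R 4.3.3, with TMM scaling and the filterByExpr filter, and DESeq2 1.42.0 as an alternative. Between classes the rat was a block, and between groups all rats with 10 cells shared 1 spread. The models were tested on counts simulated around 1 common profile with known changes, with no rat effect and no mixed classes. That test does not cover the spread between these rats. The genes, lists and tests were chosen with earlier results of these data known. Named by rule were the members, up to 6 called list genes of the largest fold change per comparison, and the 3 genes most like each member. Some genes that the rule names are not reported here. Promoter stretches were matched by symbol for 3 of 6 members. Doublets were treated only in part, by an alternative that leaves out cells with a second hormone. Alternatives changed scaling, filters, class limits, blocks and single rats. Limits of 3 counts cover counting error only. Between young and old, with 2 rats a group, p-values measure the spread between these rats. HFHF-old was 1 rat, so its comparisons hold no spread between HFHF-old rats. Between classes, p-values measure how the differences within a rat vary from rat to rat.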

Additional observations from a re-analysis of the deposited data

Results flagged for a closer look

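HFHF-old replicate 2 gave 5 beta cells, too few for any comparison, and their counts entered no test. They held 25 UMIs of Slc2a2 (228 counts per 1000000 UMIs, CPM), 26 of Slc30a8 (237), 8 of Abcc8 (72.9), 4 of Kcnj11 (36.4) and 4 of Ucn3 (36.4). The limit of 3 UMIs that a count of 0 allows is 27.3 CPM here, and the 4 UMIs of Kcnj11 and of Ucn3 lie near it. The part of free RNA in these counts was not tested. The counts are shown because this library was in no comparison, and 5 cells of 1 rat do not describe its beta cells. Groups of 2 rats were too small to search for a rat far from the others.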

How the results depend on the processing

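The counts over the members, called in either direction or ordered by level, kept within 1.5 times their main value in all 169 alternatives, DESeq2 included. In each, 0 members were called between groups, a count that the few residual degrees of freedom left little room to move. A count can also hold while its members change. With insulin-rich beta cells Kcnj11 lost its calls against alpha and PP cells, and Slc30a8 gained 1 against PP cells. Of the single members' alternatives 690 kept their direction and side of the threshold, 55 turned in direction, 4 lost and 3 gained a call. Slc2a2, Ucn3 and Abcc8 kept direction and call between beta and the other classes, at 7.35 to 8.72, 2.24 to 3.25 and -1.40 to -0.95 against alpha cells without rats left out.

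No member that turned was past the threshold in its main comparison, and the cause was not tested. From young to old in beta cells, insulin-rich cells gave -0.0400 for Slc2a2 and -0.0475 for Slc30a8. With no limit on the top 1% of gene number they gave -0.27, -0.12 and, for Ucn3, -0.0456, and with hormones and enzymes left out -0.0611 and -0.0748. Rats left out in turn gave -0.36 to 2.61 for Slc2a2 and -0.25 to 2.31 for Slc30a8. From old to HFHF-old in beta cells, they gave -0.47 to 0.00276 for Slc2a2 and -0.31 to 0.22 for Ucn3. From young to old in alpha cells, Slc2a2 was at -0.0117 with no cell filter and Kcnj11 at -0.17 to 0.30 with rats left out. From old to HFHF-old in alpha cells, Ucn3 was at 0.0814 with cells of a second hormone left out, 0.54 with no top limit or no cell filter, 0.00879 with only the rats compared and -0.16 to 0.16 with rats left out. With rats left out Kcnj11 was there at -0.40 to 0.0308 and Slc30a8 at -0.0864 to 0.28. In PP cells from young to old, Kcnj11 was at 0.10 with no top limit or no cell filter and at -0.23 to 0.0343 with rats left out, and Slc30a8 at -0.74 to 0.13. From old to HFHF-old in PP cells, no top limit or no cell filter gave -0.23 for Abcc8 and -0.17 for Slc30a8, and rats left out gave -0.12 to 0.34 for Abcc8.

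Between beta and alpha cells Slc30a8 was at 0.10 with cells of a second hormone left out, at 0.51 in insulin-rich cells, 0.47 with no top limit there and 0.48 without hormones, and at -0.44 to 0.28 with rats left out (beta against PP -0.11 to 0.41). Slc2a2 between alpha and PP cells, low in both, was at -0.00807 with RLE factors, -0.0214 with no low-count filter, -0.0344 with the legacy edgeR fit, -0.0702 at 10% hormone, -0.60 with no top limit, -0.37 with no cell filter, -0.0613 at 2000 UMIs, -0.0509 without hormones and -0.18 to 0.49 with rats left out.

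The labels link same-numbered young and old rats by the number alone. Their deviations correlated at -0.275 in beta, 0.180 in alpha and 0.247 in PP cells. Among the rats tested, Kcnj11 in alpha, beta and PP cells was higher in CPM in each replicate 1 than in both replicates 2. So were Abcc8 and Slc30a8 in PP, Abcc8 in alpha and Slc2a2 in beta cells. Abcc8 in beta cells and Ucn3 and Slc30a8 in alpha and beta cells did not split so. In alpha cells Abcc8 was at 178 to 289.5 against 115 and 125.5. HFHF-old was replicate 1 alone in every comparison. The cause was not tested. With the replicate number as a block 0 members were called. In beta cells the block moved Slc2a2 from 0.47 to 1.11, Ucn3 from 0.88 to 1.51 and Slc30a8 from 0.52 to 0.99 from young to old, and Slc2a2 from -0.25 to -1.22, Ucn3 from -0.06 to -0.90, Abcc8 from 0.20 to 0.12 and Kcnj11 from 0.42 to 0.13 from old to HFHF-old. The block gave -0.0743 for Slc30a8 in beta cells, -0.0760 for Slc30a8 and 0.00650 for Ucn3 in alpha cells, and -0.0853 for Abcc8 and -0.0947 for Slc30a8 in PP cells, all from old to HFHF-old, and it called 30 genes in place of 2 from young to old in alpha cells. Crossed pairs, added after seeing the data, gave -0.0324 for Abcc8 and -0.27 for Slc30a8 in beta cells, with 0 members called. Without the rat block, 2183, 1701 and 460 genes were called in the comparisons of beta with alpha, beta with PP and alpha with PP cells, in place of 3682, 3116 and 963. DESeq2 called 23 and 16 genes in alpha and 9 and 12 in PP cells, in place of 2, 3, 2 and 3. Leaving out 1 rat gave 4 to 128 and 6 to 155 genes in alpha and 65 to 168 and 52 to 229 in PP cells. With only the rats compared 211 genes were called from old to HFHF-old in PP cells, and 18 with no top limit. Between alpha and PP cells 595, 572 and 624 genes were called without young replicate 1, old replicate 1 and old replicate 2. In insulin-rich beta cells 3 to 15 genes were called from young to old and 4 to 7 from old to HFHF-old. The 30 alpha cells of HFHF-old replicate 1 and the lack of a second HFHF-old rat with enough cells limit every diet comparison.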
